A study of Mus musculus with 17 samples.

Results

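In the transcript models assembled from these mouse male germ cells, 666 of 27289 genes are single-exon loci that lie wholly within an intron, on the opposite strand, of a longer gene. Each has transcripts of 1 exon only, a span inside the span of an opposite-strand gene with at least 2 exons in a transcript, and no base in common with any exon of that host. They make up 9.96% of the 6685 single-exon genes. The choice used positions alone and no level. The 666 loci form 672 pairs with 609 hosts, since 4 loci lie in 2 hosts and 1 lies in more; 564 hosts hold 1 locus each and 45 hold at least 2.

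RNA was sequenced from cells of C57BL/6JRj testes, sorted by flow cytometry with the DNA dye Hoechst and the dye SYTO 16 into 5 stages with 3 libraries each. They cover spermatocytes in leptotene or zygotene (LZ), spermatocytes in pachytene or diplotene (PD), spermatids that are still round (RS), and spermatids early (EES) and late (LES) in elongation, all labelled wild type, male and 3 months old. There are also 2 single libraries of cells stained with Hoechst alone: RS23, round spermatids of juvenile mice at 23 days post partum, and PrmES, elongating spermatids that its title calls sorted by Prm1-EGFP. The labels give the age of 3 months and the wild-type genotype for these as well, against their titles. The labels do not tie the 3 libraries of a stage to different mice, and p-values therefore reflect the spread among the libraries alone, which may be technical.

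Spermatogenesis takes germ cells through meiosis, in which homologous chromosomes pair and recombine, and then through a haploid phase in which spermatids compact their chromatin and grow a flagellum. The testis transcribes an unusually large share of the genome, including antisense RNAs, pseudogenes and retrocopies. A retrocopy is an intronless copy of a spliced messenger RNA inserted elsewhere in the genome, and an intron of another gene is a frequent place of insertion; a nested gene is one that lies within the intron of another.

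The sequences that bear on the results are of 2 kinds. The promoter windows of Hils1, Gk2 and Cypt4 are shown because these are the 3 nested loci with a protein-coding gene that have the highest stage means, and their RefSeq start lies close to the start of the assembled locus (131, 112 and 126 bases inside it). Each window runs from 250 bases before to 50 bases after the RefSeq start, read in the direction of the gene, on build GRCm38.p6: chr11:94967343-94967642 on the plus strand for Hils1, chr5:97456974-97457273 on the minus strand for Gk2 and chr9:24624935-24625234 on the plus strand for Cypt4. Capitals mark CCAAT on either strand.
Hils1: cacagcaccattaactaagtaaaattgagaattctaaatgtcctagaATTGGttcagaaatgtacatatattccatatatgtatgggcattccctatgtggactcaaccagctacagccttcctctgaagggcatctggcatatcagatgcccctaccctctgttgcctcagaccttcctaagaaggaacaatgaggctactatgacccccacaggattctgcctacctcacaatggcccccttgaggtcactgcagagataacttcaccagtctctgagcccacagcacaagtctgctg
Gk2: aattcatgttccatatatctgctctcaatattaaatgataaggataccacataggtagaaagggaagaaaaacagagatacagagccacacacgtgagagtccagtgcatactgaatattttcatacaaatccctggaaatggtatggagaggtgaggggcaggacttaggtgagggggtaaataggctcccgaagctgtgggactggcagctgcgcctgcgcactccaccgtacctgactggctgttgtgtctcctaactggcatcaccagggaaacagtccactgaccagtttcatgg
Cypt4: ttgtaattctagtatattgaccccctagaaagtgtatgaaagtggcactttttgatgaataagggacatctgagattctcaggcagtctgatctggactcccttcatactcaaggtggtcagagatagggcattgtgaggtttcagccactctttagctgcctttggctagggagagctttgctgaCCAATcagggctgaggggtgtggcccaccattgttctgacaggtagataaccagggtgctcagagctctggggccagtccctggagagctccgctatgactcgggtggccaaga
The CCAAT motif begins at position -203 in Hils1 (on the minus strand of the gene) and at position -64 in Cypt4, counted from the RefSeq start. None of TGACGTCA (the full cAMP response element), its shorter form TGACG or TATAAA occurs on either strand of the Gk2 window, nor does CCAAT.

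RefSeq promoters were found for 31 of the 150 nested loci with a reference gene on their own strand, and 9 of these start within 300 bases of the assembled start. CCAAT occurred in 5 of those 9 windows, against 37.4% of the 32817 windows of all genes, TGACG in 3 of 9 (against 20.8%), TATAAA in 1 of 9 (against 13.6%) and TGACGTCA in 0 of 9 (against 1.79%). TGACG is contained in TGACGTCA, so those counts overlap. A match is a description of letters in a window and not of a binding site.

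The other sequences are those of retrocopies beside the closest coding sequence, shown because they decide how far a level can be placed on the nested copy. Both are from the GENCODE M21 transcripts of GRCm38, in a stretch of 120 bases with the bases that differ in capitals. Gm8292 lies on chromosome 1 in an intron of Boll, and the stretch covers bases 244 to 363 of the Rps24 coding sequence.
Gm8292: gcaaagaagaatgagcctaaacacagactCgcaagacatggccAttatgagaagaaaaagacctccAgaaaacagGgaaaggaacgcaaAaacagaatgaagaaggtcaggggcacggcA
Rps24: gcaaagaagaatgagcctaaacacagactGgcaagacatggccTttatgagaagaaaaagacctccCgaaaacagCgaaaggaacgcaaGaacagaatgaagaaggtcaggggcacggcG
Gm8430, listed as Rps27a-ps3 in RefSeq, lies on chromosome 6 in an intron of Rimklb, and the stretch covers bases 1 to 120 of the Rps27a coding sequence.
Gm8430: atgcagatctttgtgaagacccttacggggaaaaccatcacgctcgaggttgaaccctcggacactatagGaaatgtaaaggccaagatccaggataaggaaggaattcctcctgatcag
Rps27a: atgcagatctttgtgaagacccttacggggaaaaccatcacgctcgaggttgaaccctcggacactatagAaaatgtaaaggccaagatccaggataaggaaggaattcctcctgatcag
Over the whole aligned coding sequence Gm8292 differed from Rps24 at 11 of 391 columns and Gm8430 from Rps27a at 1 of 468, and Rps16-ps2 differed from Rps16 at 0 of 438. Among the 86 nested pseudogenes 84 matched a coding transcript, 76 at 95% identity or more and 34 at 99% or more, and 23 of the 46 nested loci with a coding reference gene matched another coding gene at 95% or more. The aligner may assign a read to either member of such a pair, which leaves the levels of these loci uncertain.

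The nested loci were short. Their length ran from 201 to 11242 bases with a median of 541.5, against 761 bases for the 3983 single-exon genes that overlap no gene. They lay a median of 2116.5 bases from the nearest exon of the host, and 492 of the 672 pairs left at least 500 bases. The intron around a locus had a median length of 14183 bases, and the hosts had a median span of 64270 bases, against 15557.5 bases for multi-exon genes in general. The first intron of the host held 207 pairs (30.8%) and the last 70 (10.4%), with 24 in a host with a single intron. Along the host from its start, 248 pairs lay in the first 25% of its span, 195 in the next, 157 in the one after and 72 in the last. Plus-strand loci numbered 313 and minus-strand loci 353, on every autosome and with 12 on the X chromosome. The host with the most is MSTRG.18040 on chromosome 4, with 6 loci, of which 2 reached the level needed for a test.

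A reference gene in GENCODE M21 shared exonic bases on the same strand with 150 of the 666 loci (22.5%), against 34.0% of isolated single-exon genes and 75.5% of multi-exon genes. Of these 150, 86 are pseudogenes (74 of them processed pseudogenes, the class that holds retrocopies), 46 are protein-coding and 18 noncoding, 8 of those annotated as antisense. The other 516 loci matched no reference gene on their strand, and 474 touched no reference exon on either strand. Hosts were mostly known genes: 568 of 609 matched a reference gene and 498 a protein-coding one. A set of 26 known retrogenes and intronless imprinted genes and a set of 27 intronless testis genes were also looked up by symbol. Of these, 21 and 23 matched an assembled gene, and 0 and 0 of those were nested loci. The symbol H1f9, 1 of the unmatched ones, is a newer name of Hils1, which is nested.

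Levels are given in RPKM, reads per kilobase of exon scaled to the reads of the library, from libraries of 90.6 to 159.2 M reads. At the median length, 1 RPKM stood for 49.0 to 86.2 reads. Every locus had reads in at least 1 of the 15 stage libraries. Reads counted in the nested loci came to 0.215 to 0.372% of the recovered total of a library. Tests needed 1 RPKM or more in no fewer than 3 of those 15 libraries, which kept 448 of the 666 (67.3%): 328 of 516 without a reference gene, 78 of 86 pseudogenes, 29 of 46 coding and 13 of 18 noncoding loci. The median of the highest stage mean was 2.28 RPKM for tested loci without a reference gene, 5.88 RPKM for pseudogenes, 3.76 RPKM for coding and 2.04 RPKM for noncoding loci. A locus that passed through 1 high stage alone had to differ between stages, so counts over the tested loci describe them and are not evidence about the 666. At the edge of the filter, the library that decides the filter was at 1.01 RPKM for both MSTRG.2390 and Gm6819, which were tested, and the loci nearest below it were MSTRG.22328 and MSTRG.11520. MSTRG.2390 reached its level in the LZ libraries alone and was listed at 0 in every PD, RS, EES and LES library.

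LZ libraries expressed the nested loci most widely. In the 3 LZ libraries 366, 371 and 324 of the 666 loci reached 1 RPKM, against 110, 120 and 115 in PD, 162, 150 and 147 in RS, 156, 196 and 154 in EES, and 174, 153 and 168 in LES. The RS23 library had 118 and the PrmES library 117. Among all 27289 genes the same share stayed between 39.6% and 53.5% in every library. Of the 448 tested loci, 239 had their highest stage mean in LZ (53.4%, against 29.2% of all tested genes), 38 in PD, 43 in RS, 41 in EES and 87 in LES. LZ was also highest for 39.9% of isolated single-exon genes and 37.9% of single-exon genes in an intron on the same strand. The median level of isolated single-exon genes was 1.477 RPKM in LZ and 0.2225 RPKM in PD, near the 1.802 and 0.1975 RPKM of nested loci. Among nested loci without a reference gene 197 of 328 were highest in LZ, among nested pseudogenes 28 of 78 and among nested coding loci 12 of 29.

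**Figure D1:**
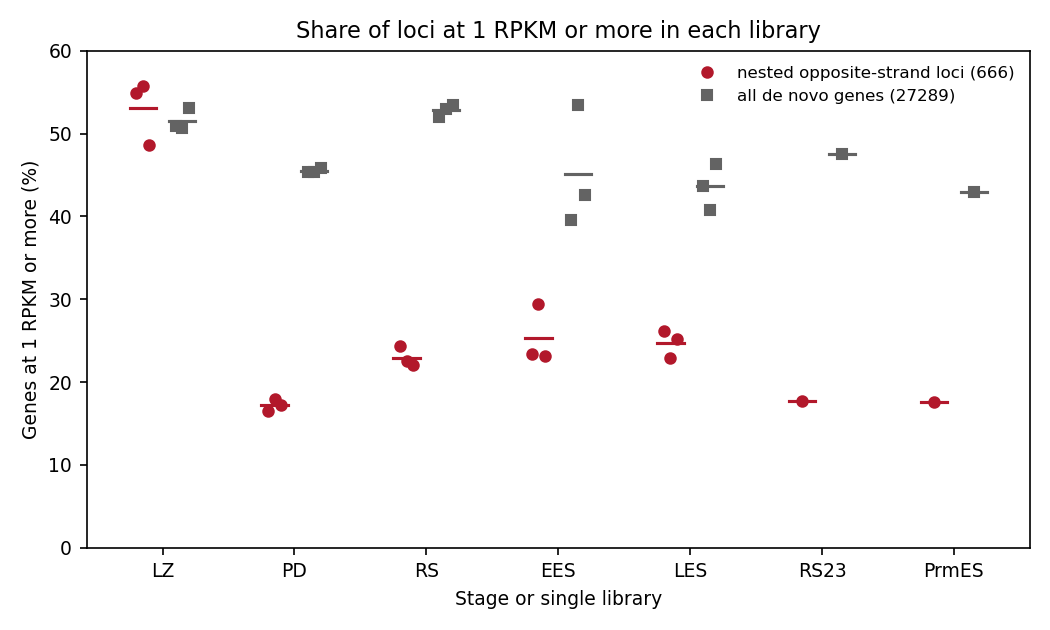
Percent of the 666 nested loci (red circles) and of all 27289 de novo genes (grey squares) at 1 RPKM or more (y axis) in each library, by stage or single library (x axis); points are libraries and bars are means over the libraries of a stage. The nested loci reach 48.6 to 55.7% in LZ libraries and 16.5 to 29.4% in every other library, while all genes stay between 39.6% and 53.5%.

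A change between neighbouring stages was called with limma at an adjusted p under 0.05 over the 21515 genes tested and a log2 fold change of at least 1. Of the 448 tested loci, 248 fell and 42 rose in PD relative to LZ (55.4% and 9.38%), where 32.3% of all tested genes fell and 26.6% rose. Their median log2 fold change was -2.12, against -0.23 for all tested genes. With no filter on low values, 52.6% of the 666 loci fell, against 30.5% of all genes. Falls were called for 64.3% of loci without a reference gene, 41.4% of coding loci, 28.2% of pseudogenes and 29.5% of the 573 tested hosts, and for 41.1% of isolated single-exon genes and 40.5% of single-exon genes in an intron on the same strand. Among the 11 tested loci on the X chromosome, which is silenced in pachytene, 6 fell and 0 rose. That share of falls is close to the 55.4% of all tested nested loci, and the share over all X-linked genes was not computed.

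Most of the 248 loci that fell stayed low afterwards. In 195 of them LZ was the highest stage, and in 151 every later stage mean was under 0.5 RPKM. These counts were not made for all genes that fell. Loci that passed the filter through LZ alone had to be highest there, so the counts do not set nested loci apart. The median levels of the 248 loci were 0.0918, 0.127 and 0.121 RPKM in the PD libraries, against 2.46, 2.36 and 1.82 RPKM in the LZ libraries. The third LZ library was the lowest of its stage in 62.9% of them, against 37.8% of all genes that fell, and it shared more of the loci's order with PD (Spearman's rho of 0.419 to 0.424 over the tested loci) than the other LZ libraries did (0.261 to 0.292). Without this library and the second EES library, 59.2% of the tested loci fell and 11.2% rose, against 32.8% and 30.25% of all tested genes.

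Several other measurements moved with this fall. Reads counted in exons of de novo genes came to 86.8 to 90.8% of the recovered library total in PD and 54.2 to 73.7% in LZ. This figure reached 105.1 to 106.3% in LES libraries and 107.8% in the first EES library, so it is not a strict share of the reads. Whether the libraries or the counting kept the strand of the RNA is not given in the sources used here, and without strand, reads from unspliced host RNA and from an antisense locus in the same intron cannot be told apart. Of 11 markers of Sertoli cells, the somatic cells that nurse the germ cells, 10 were higher in every LZ than in every PD library. The 11 summed to 2.22 to 3.14 RPKM in PD and 51.6 to 99.4 RPKM in LZ. Rhox5 was at 0 in the second PD library, and no Sertoli marker was at 0 in every library of a stage. Spermatogonial markers summed to 7.80 to 10.4 RPKM in PD and 44.1 to 53.2 RPKM in LZ, with 5 of 7 higher in every LZ library. Leydig cell markers summed to 1.89 to 2.46 RPKM in PD and 4.61 to 6.75 RPKM in LZ (3 of 6), macrophage markers to 1.73 to 2.32 and 2.12 to 3.12 RPKM (2 of 6), and the 3 erythroid markers found to 0.197 to 0.420 and 1.45 to 2.86 RPKM (3 of 3). Markers of elongating spermatids summed to 63.5 to 251.4 RPKM in PD and 769 to 1284 RPKM in LZ. The part of these in the fall was not tested. Fewer cells of a type and less RNA per cell cannot be told apart in such bulk samples.

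Loci and pairs are named below by a rule with a level limit, so larger changes exist among weaker loci: a locus needed a stage mean of at least 8 RPKM in the higher stage and libraries that do not overlap, and a pair needed that level in both genes. The largest falls within these limits were those of MSTRG.1294 and MSTRG.4761, neither of which matches a reference gene. MSTRG.1294 covers chr1:167393862-167400311 on the minus strand, in an unannotated host, and had 0.0648, 0.0519 and 0.0350 RPKM in PD libraries, against 32.1, 26.6 and 17.4 RPKM in LZ libraries. At 11132 to 19966 reads in LZ and 31 to 46 in PD, the stages were far apart in every library. Its log2 fold change was -8.70 ± 0.65 (SE, limma adjusted p = 1.39e-07), and its RS, EES and LES libraries held at most 0.0681 RPKM. Its host MSTRG.1293 moved the other way, with 1.49 ± 0.15 RPKM in PD and 0.221 ± 0.066 RPKM in LZ (SD, n = 3), a log2 change of 2.74 (adjusted p = 1.57e-06 by limma).

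MSTRG.4761, 295 bases in the first intron of Sept9 (a septin, a filament-forming GTPase), had 4, 0 and 0 reads in PD libraries, against 632, 1023 and 210 reads in LZ libraries. In RPKM its LZ levels were 22.3, 34.3 and 7.18, so the LZ libraries themselves differ by several fold while staying clear of PD. The fitted log2 fold change of -9.54 ± 1.39 (limma adjusted p = 4.06e-05) depends on the pseudocount of 0.01 RPKM. Sept9 fell as well, to 0.0398 ± 0.0096 RPKM in PD, against 1.99 ± 1.24 RPKM in LZ (SD, n = 3). MSTRG.14706, in the first intron of Kif3b (a kinesin-2 motor subunit used in building flagella), had 0.0374, 0.269 and 0.255 RPKM in PD and 13.1, 16.5 and 7.18 RPKM in LZ, while Kif3b had 41.3 ± 6.3 RPKM in PD and 9.64 ± 3.83 RPKM in LZ. The log2 difference between locus and host changed by -8.41 ± 1.11 (limma adjusted p = 3.27e-05 over pairs).

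Among the loci that rose in PD, Gm7791 and MSTRG.24497 had the largest rises within the limit of 8 RPKM. Gm7791, a processed pseudogene closest to Rangrf (a cofactor of the transport GTPase Ran), lies in intron 5 of Akap7, an anchor of protein kinase A. It had 9.69, 8.08 and 11.6 RPKM in PD libraries, against 0.165, 0.301 and 0.609 RPKM in LZ libraries. No library of one stage reached the other, and the log2 fold change was 4.91 ± 0.35 (limma adjusted p = 8.66e-08). MSTRG.24497, 3530 bases on chromosome 8 in the last intron of the unannotated MSTRG.24496, had 24.3, 25.4 and 29.2 RPKM in PD, against 0.480, 0.660 and 4.73 RPKM in LZ. The third of the LZ libraries was several fold above the other LZ libraries and still below PD, and the log2 fold change was 4.50 ± 0.61 (limma adjusted p = 2.09e-05). It then fell to 5.25 ± 0.86 RPKM in RS, against 26.3 ± 2.6 RPKM in PD (SD, n = 3), by 2.33 on the log2 scale (limma adjusted p = 0.00567), and host and locus moved together over the 15 libraries (r = 0.94, a description over stages that share libraries).

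Gk2, a glycerol kinase expressed in testis and closest in sequence to Gk (81.3% identity), is nested in intron 3 of 4930467D21Rik at chr5:97454675-97457135 on the minus strand. It had 482.6, 404.9 and 430.5 RPKM in PD libraries, against 14.4, 12.2 and 53.8 RPKM in LZ libraries. All PD libraries lay well above all LZ libraries, of which the third was the highest, and the log2 fold change was 4.37 ± 0.75 (limma adjusted p = 0.000157). RS libraries kept it at 597.4, 536.5 and 526.3 RPKM. EES libraries had 17.99, 241.6 and 36.4 RPKM, a log2 fold change of -3.35 ± 0.75 relative to RS (limma adjusted p = 0.00112), with the second EES library between the others and RS. The host 4930467D21Rik stayed far below the locus in every stage, with 2.05 ± 0.11 RPKM in PD and 1.21 ± 0.25 RPKM in LZ (SD, n = 3).

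RS relative to PD gave 91 rises and 51 falls among the 448 tested loci (20.3% and 11.4%), where 30.2% of all tested genes rose and 12.6% fell. The median log2 fold change was 0.30, against 0.23 for all tested genes. With each library centred on its median, 52.7% of the loci's calls were rises, against 64.1% as deposited and 26.5% after quantile normalization, so the balance of rises and falls turns with the scaling. Quantile normalization gave 48 rises and 133 falls (10.7% and 29.7%, against 20.8% and 23.2% of all tested genes). A pseudocount of 1 RPKM in place of 0.01 RPKM gave 39 and 18 (8.7% and 4.02%, against 15.5% and 6.97%). Coding loci gave 12 rises and 2 falls of 29, pseudogenes 11 and 8 of 78, and loci without a reference gene 63 and 39 of 328.

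Hils1, the linker histone of spermatids, showed the largest rise among loci within the limit of 8 RPKM. It lies in intron 6 of Sgca (a sarcoglycan of the muscle membrane) at chr11:94967462-94968551 on the plus strand, 507 bases from the nearest Sgca exon. RS libraries held 105.8, 109.2 and 148.2 RPKM, against 4.27, 3.55 and 8.44 RPKM in PD libraries. The stages did not overlap, and the log2 fold change was 4.57 ± 0.34 (limma adjusted p = 3.50e-07). In EES it had 862.8, 899.0 and 864.9 RPKM, a further log2 fold change of 2.87 ± 0.34 (limma adjusted p = 7.46e-06), which makes its EES mean of 875.6 RPKM the highest stage mean of any nested locus. LES libraries had 862.3, 784.8 and 608.7 RPKM, RS23 had 67.0 and PrmES 768.8 RPKM. It fell in PD relative to LZ, where LZ libraries had 18.3, 18.8 and 38.9 RPKM; the summed markers of elongating spermatids given above were also higher in every LZ than in every PD library, and their part in this fall was not tested.

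Sgca itself followed another course, with means of 1.86 RPKM in LZ, 13.4 in PD, 5.70 in RS, 3.14 in EES and 2.45 in LES. The log2 difference between Hils1 and Sgca changed by -5.53 ± 0.41 in PD relative to LZ, by 5.80 ± 0.41 in RS relative to PD and by 3.84 ± 0.41 in EES relative to RS (limma adjusted p = 2.92e-07, 4.21e-07 and 5.95e-06 over pairs).

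Cypt4, of the cysteine-rich perinuclear theca family of spermatids, lies in intron 15 of Dpy19l2, a gene needed to shape the sperm head. RS libraries had 29.1, 24.2 and 35.8 RPKM, against 1.05, 1.17 and 2.28 RPKM in PD libraries. The groups did not overlap, and the log2 fold change was 4.37 ± 0.34 (limma adjusted p = 4.39e-07). It rose again in EES, to 79.2, 172.0 and 95.5 RPKM (log2 fold change 1.90 ± 0.34, adjusted p = 0.000219 by limma), and had 230.7 RPKM in PrmES. Dpy19l2 averaged 12.83 ± 12.99 RPKM in EES and 86.8 ± 21.5 RPKM in RS (SD, n = 3), so that locus and host moved in opposite directions there. Its closest other coding transcript is Cypt3, at 87.3% identity.

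**Figure D2:**
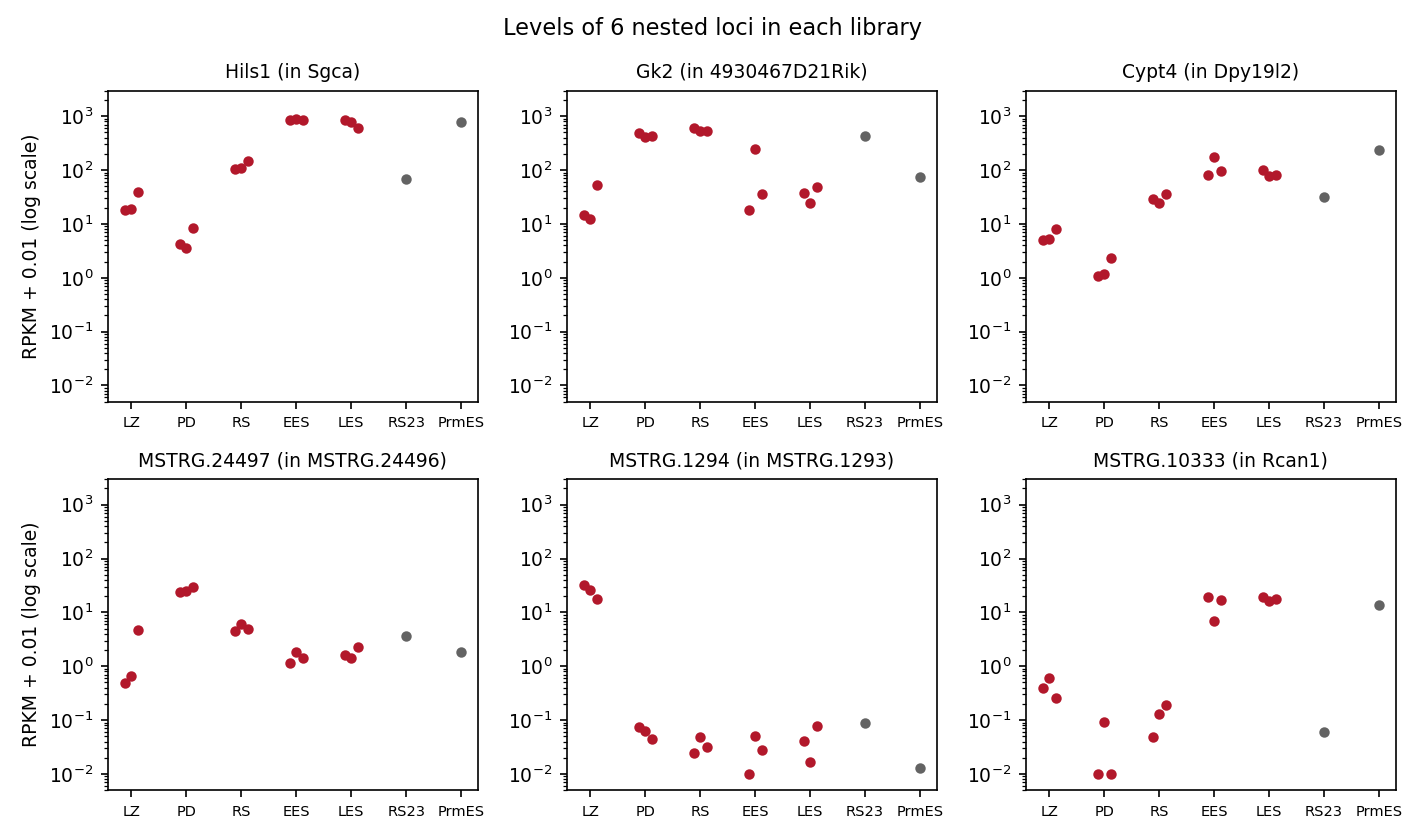
Level of 6 nested loci, with the host in brackets, in each library (RPKM plus 0.01 on a log axis), by stage or single library on the x axis; red points are the 3 libraries of a stage and grey points single libraries. Hils1 and Cypt4 lie highest in EES, LES and PrmES, Gk2 in PD and RS, MSTRG.24497 in PD and MSTRG.1294 in LZ alone, and MSTRG.10333 stays under 0.61 RPKM before EES.

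Within the same limit, the largest fall in RS relative to PD was that of Gm48990, a pseudogene 99.8% identical to part of Baz1a (a subunit of nucleosome-sliding complexes). RS libraries had 2.42, 1.06 and 2.01 RPKM, against 17.4, 21.4 and 15.6 RPKM in PD libraries. The PD libraries were above all others of the 15, and the log2 fold change was -3.37 ± 0.34 (limma adjusted p = 2.84e-06). Baz1a itself had 6.39 ± 1.56 RPKM in RS and 61.1 ± 6.8 RPKM in PD (SD, n = 3), and its level followed that of Gm48990 over the 15 libraries (r = 0.97, a description).

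In EES relative to RS, 100 loci rose and 176 fell (22.3% and 39.3%), where 23.0% of all tested genes rose and 47.3% fell, with a median log2 fold change of -1.03, against -1.05 for all tested genes. Centred on the library median, 47.6% of the loci's calls were rises, against 36.2% as deposited, and the median of all tested genes was -0.43. A pseudocount of 1 RPKM left 62 rises and 48 falls (13.8% and 10.7%), where 17.9% of all tested genes rose and 30.2% fell. LES relative to EES gave 0 rises and 0 falls by limma (0.0% of all tested genes in each direction), with 31 of the 448 loci at an unadjusted p under 0.05.

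**Figure D3:**
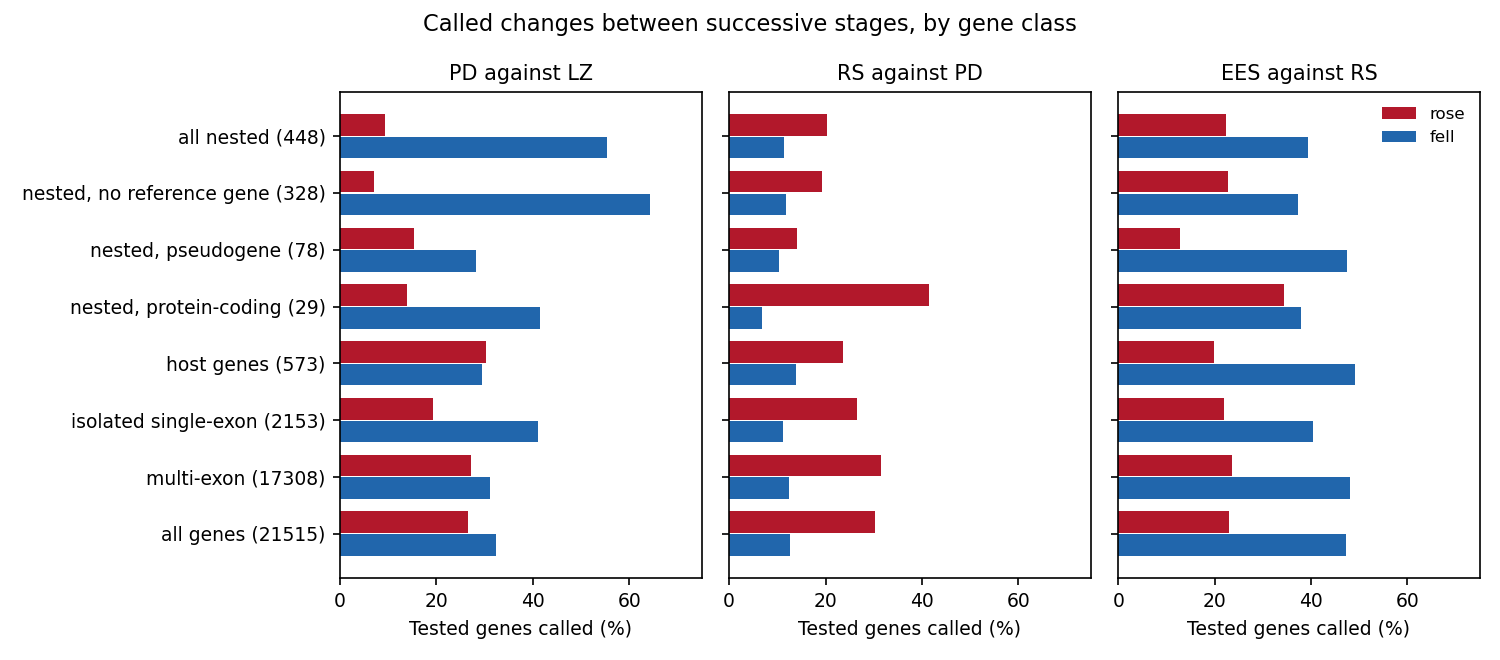
Percent of tested genes (x axis) called higher (red) or lower (blue) in the later of neighbouring stages, for the nested loci, their kinds, host genes and other gene classes (y axis, number tested in brackets). Falls reach 55.4% of nested loci in PD relative to LZ, against 32.3% of all tested genes, and 39.3% against 47.3% in EES relative to RS.

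The largest rises in EES within the limit of 8 RPKM were in unannotated loci. MSTRG.10333, 492 bases in the first intron of Rcan1 (an inhibitor of the phosphatase calcineurin), had 19.4, 6.96 and 17.0 RPKM in EES libraries, against 0.0377, 0.118 and 0.184 RPKM in RS libraries. In reads this was 864, 332 and 1015, against 2, 8 and 12, with no overlap, and the log2 fold change was 6.96 ± 0.78 (limma adjusted p = 4.37e-06). LES libraries had 19.0, 16.4 and 18.03 RPKM and PrmES 13.5 RPKM, whereas RS23 had 0.0511 RPKM. Rcan1 fell, with 0.893 ± 0.149 RPKM in EES and 2.58 ± 0.46 RPKM in RS (SD, n = 3; log2 change -1.52, limma adjusted p = 0.000263).

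MSTRG.9939, 245 bases in intron 6 of Hacd2 (a dehydratase of fatty acid elongation), had 12.5, 5.52 and 12.4 RPKM in EES libraries, against 0.0756, 0.118 and 0.185 RPKM in RS libraries. The log2 fold change was 6.20 ± 0.93 (limma adjusted p = 4.97e-05), on 131 to 369 reads in EES and 2 to 6 reads in RS. MSTRG.25916, in intron 2 of the kinase gene Nek11, had 15.6, 9.48 and 15.3 RPKM in EES and 1.01, 0.514 and 1.09 RPKM in RS, while Nek11 fell to 2.34 ± 0.97 RPKM in EES, against 9.96 ± 0.92 RPKM in RS (SD, n = 3). The second EES library was the lowest of the 3 for each of these loci. For MSTRG.25916 the log2 difference to the host changed by 6.13 ± 0.43 (limma adjusted p = 2.53e-07 over pairs), the largest positive change among pairs in which both genes reached 8 RPKM in a stage of this comparison.

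The noncoding RNA 1700008B11Rik, in the first intron of Sh2b3 (an adaptor of cytokine receptors), had 138.7, 64.4 and 127.3 RPKM in EES libraries, against 1.35, 1.49 and 2.14 RPKM in RS libraries. The groups did not overlap, and the log2 fold change was 5.99 ± 0.30 (limma adjusted p = 5.47e-08). LES held it at 124.7 ± 5.6 RPKM (SD, n = 3), PrmES at 32.8 RPKM and RS23 at 0.411 RPKM. Sh2b3 stayed between 0.783 and 1.59 RPKM on average, and none of its changes between neighbouring stages passed the test. Coding loci gave examples of the same course, chosen here after their values were seen. Dnajb7, a J-domain chaperone in the first intron of Xpnpep3, had 46.9 ± 7.8 RPKM in EES and 3.45 ± 1.19 RPKM in RS (SD, n = 3). Plpp6, a lipid phosphatase in 4430402I18Rik, had 39.9 ± 15.04 RPKM in EES and 1.77 ± 0.33 RPKM in RS. Their log2 fold changes were 3.80 ± 0.34 and 4.43 ± 0.38 (SE, limma adjusted p = 7.90e-07 and 5.64e-07). The host of Plpp6 moved with it, by 2.63 on the log2 scale in EES relative to RS. There the log2 difference between locus and host changed by 1.80 (limma adjusted p = 0.000227 over pairs). In RS relative to PD the host rose by 5.05 and Plpp6 by 4.16, and the difference was not called.

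The largest falls in EES within the limit of 8 RPKM were in retrocopies, and some weaker loci of other kinds fell further. Gm8430 (Rps27a-ps3), next to an Rps27a that differs at 1 base of the coding sequence shown above, had 0.316, 0.831 and 0.591 RPKM in EES libraries, against 14.5, 18.9 and 17.0 RPKM in RS libraries. The log2 fold change was -4.93 ± 0.38 (limma adjusted p = 2.37e-07) with no overlap. Rps27a in the gene table had 0.519 ± 0.296 RPKM in EES and 7.65 ± 1.04 RPKM in RS (SD, n = 3). Rimklb, the host, did not pass the test (13.1 ± 1.4 RPKM in EES and 15.6 ± 2.3 RPKM in RS). Gm3724, in intron 2 of Klhl7 (an adaptor of a cullin ubiquitin ligase) and 99.4% identical to Gabarapl2 (an autophagy protein), had 0.243, 1.31 and 0.5002 RPKM in EES libraries, against 15.3, 19.1 and 16.4 RPKM in RS libraries. Its log2 fold change was also -4.93, with an SE of 0.44 (limma adjusted p = 8.05e-07), and Gabarapl2 had 0.401 ± 0.244 RPKM in EES and 10.1 ± 1.2 RPKM in RS. Klhl7, the host of Gm3724, fell as well, by 3.01 on the log2 scale (limma adjusted p = 0.000426). It had 2.13 ± 2.49 RPKM in EES and 10.9 ± 2.2 RPKM in RS. The log2 difference between Gm3724 and Klhl7 changed by -1.915 (limma adjusted p = 0.000116 over pairs).

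Gm16089, a copy of Uqcrb (a subunit of respiratory complex III) in intron 10 of Fbxo24, had 0.183, 5.42 and 0.632 RPKM in EES libraries, against 11.1, 10.1 and 11.5 RPKM in RS libraries. Fbxo24, an F-box gene, moved the other way with 34.5 ± 19.1 RPKM in EES and 7.65 ± 0.80 RPKM in RS (SD, n = 3). The log2 difference changed by -5.68 ± 0.83 (limma adjusted p = 8.35e-05 over pairs), the largest negative change among pairs in which both genes reached 8 RPKM in RS or EES.

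The retrocopies with the highest levels differed in course. Rpl14-ps1, in intron 6 of Trpm4 (a cation channel) and 98.9% identical to Rpl14, had 137.5, 140.3 and 144.6 RPKM in LZ, 87.2, 69.0 and 56.0 in PD, 16.5, 16.6 and 11.2 in RS, 2.32, 3.10 and 4.05 in EES and 5.13, 4.57 and 9.46 in LES. It fell in RS relative to PD and in EES relative to RS, by 2.26 and by 2.24 on the log2 scale (limma adjusted p = 2.80e-05 and 1.82e-05). The log2 change of -1.02 in PD relative to LZ was -0.62 (adjusted p = 0.0771 by limma) with each library centred on its median, -0.997 without the third LZ library and -0.86 without the third PD library, so this call does not hold throughout. Trpm4 rose in RS relative to PD, with 3.33 ± 1.13 RPKM in RS and 0.128 ± 0.074 RPKM in PD. Gm10819, nested in Gnaq (a G protein subunit) and 99.1% identical to Pebp1, had 87.5, 76.9 and 70.5 RPKM in PD, against 10.3, 9.78 and 31.0 RPKM in LZ (log2 fold change 2.42 ± 0.36, limma adjusted p = 5.47e-05), and 161.7 ± 5.8 RPKM in LES (SD, n = 3). Gnaq fell in PD relative to LZ, by 3.53 on the log2 scale (limma adjusted p = 4.80e-06).

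Gm8292, the Rps24 copy in an intron of Boll (an RNA-binding protein needed for spermatogenesis), stayed between 78.5 ± 10.7 RPKM in RS and 121.6 ± 11.7 RPKM in LES (SD, n = 3), and none of its changes between neighbouring stages reached a log2 fold change of 1. Rps16-ps2 in Adgrd1, an adhesion receptor gene, was lowest in PD at 37.8 ± 6.5 RPKM and highest in LZ at 71.2 ± 12.5 RPKM. It was not called between neighbouring stages on the deposited scale. Gm3788, 99.3% identical to Tmsb10 (an actin-binding thymosin), rose in PD with 11.2, 14.3 and 15.9 RPKM, against 1.69, 1.15 and 2.79 RPKM in LZ. Its host Lrba (a BEACH-domain protein of vesicle traffic) fell to 0.221 ± 0.041 RPKM in PD, against 12.9 ± 2.9 RPKM in LZ, so the log2 difference changed by 8.75 ± 0.43 (limma adjusted p = 1.74e-08 over pairs).

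For 75 tested nested pseudogenes the closest coding gene had values in the authors' table of annotated genes. Over the 15 stage libraries the log2 level of locus and closest gene had a median r of 0.94 (quartiles 0.79 and 0.98), with r above 0.8 for 54 and below 0 for 5; both share libraries and, at high identity, reads. The single libraries often lay below the stage libraries, for this and other kinds, with the lowest median ratios in pseudogenes. The counts that follow were not made over all tested genes. An offset of a whole library therefore cannot be told from a trait of these loci. Among pseudogenes with at least 1 RPKM in RS, 40 of 59 lay below every RS library in RS23, with a median log2 ratio of -1.40 to the RS mean. The values were 33 of 58 and -0.47 for loci without a reference gene, 11 of 17 and -0.76 for coding loci, and 2 of 6 and -0.12 for noncoding loci. In PrmES 29 of 48 pseudogenes lay below every EES and LES library, with a median log2 ratio of -1.48. There the values were 55 of 100 and -1.005 for loci without a reference gene, 7 of 14 and -0.84 for coding loci, and 5 of 7 and -0.82 for noncoding loci. Gm8292 had 15.4 RPKM in RS23 and 30.4 in PrmES, where Rps24 had 16.6 and 35.1 RPKM. Rps16-ps2 had 4.10 RPKM in RS23, against 43.0 ± 4.4 RPKM in RS (SD, n = 3), and 2.58 RPKM in PrmES. Gm3788 lay on the other side, with 46.4 RPKM in RS23, against 11.9 ± 2.6 RPKM in RS, and 110.0 RPKM in PrmES, against 13.3 ± 3.9 RPKM in EES. With 1 library each, these differences have no replicate check. In the values of annotated genes, these 2 libraries also carry names that begin with Erkek, and the 15 stage libraries names that begin with Gill. Age, sorting and whatever these names stand for cannot be told apart here.

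The highest loci without a reference gene had yet other courses. MSTRG.3924, in the first intron of Ssh2 (a phosphatase of the actin regulator cofilin), had 393.3, 392.7 and 346.0 RPKM in PD and 291.0, 117.2 and 249.6 RPKM in RS, and 8.02, 97.3 and 21.2 RPKM in EES. It fell in EES relative to RS by 3.00 on the log2 scale (limma adjusted p = 0.00114), and its host fell beside it by 2.89 (limma adjusted p = 4.45e-05). MSTRG.24892, 227 bases in intron 20 of Cep295 (a centriole protein), had 1.22, 20.9 and 1.56 RPKM in EES libraries, against 55.0, 78.7 and 35.9 RPKM in RS libraries (log2 fold change -3.97 ± 0.80, limma adjusted p = 0.000537), while Cep295 rose by 1.52 (limma adjusted p = 0.000503). It lies 89 bases from a Cep295 exon.

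MSTRG.5436 in Gphn (the scaffold protein gephyrin) and MSTRG.11425 in an unannotated host are 306 and 238 bases long and varied widely within stages. In LZ they had 214.5, 263.7 and 155.6 RPKM and 154.6, 226.7 and 71.5 RPKM, and in RS 145.3, 29.6 and 47.8 RPKM and 80.3, 33.8 and 66.1 RPKM. In PD their means were 55.0 ± 27.2 and 37.2 ± 13.6 RPKM (SD, n = 3). Both fell in PD relative to LZ, by 2.06 and by 1.95 on the log2 scale (limma adjusted p = 0.00420 and 0.00534). RS23 had only 6.28 and 5.39 RPKM, below every RS library.

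Locus and host were set against each other in 428 of the 672 pairs, where both genes were tested. The log2 difference between locus and host fell in 231 pairs and rose in 49 in PD relative to LZ (54.0% and 11.4%), where 22.5% of 6460 opposite-strand overlapping pairs of any kind fell and 22.4% rose. The median change of the difference was -2.16. In RS relative to PD it rose in 70 and fell in 60 (16.4% and 14.02%), against 15.7% and 11.2% of all such pairs. In EES relative to RS it rose in 121 and fell in 115 (28.3% and 26.9%), against 26.9% and 21.1%. LES relative to EES gave 0 rises and 0 falls by limma (0.0% and 0.0155% of all pairs), with 41 pairs at an unadjusted p under 0.05.

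Of the 241 pairs whose locus fell in PD, the host fell in 73, rose in 55 and was not called in 113. Over all 6460 opposite-strand pairs, the gene with fewer exons, or of lower start in ties, stood as the locus. It fell in 1683 of them, and there the host fell in 849, rose in 212 and was not called in 622. Of the 39 nested pairs whose locus rose, the host rose in 19 and fell in 8, against 1195 and 206 of 1956 over all pairs. In EES relative to RS both genes fell in 99 of the 428 nested pairs and rose in 27. The locus rose and the host fell in 38, and the reverse held in 17. Over all 6460 pairs these counts were 2356, 668, 305 and 151. Over the 15 libraries the median r between nested locus and host was 0.39 (quartiles -0.28 and 0.76), with r below 0 in 153 of 428 pairs, above 0.8 in 91 and below -0.8 in 26. For the 6032 other opposite-strand overlapping pairs the median was 0.82. Those pairs were taken by overlapping spans, so unlike nested pairs they may share exonic bases. Without strand, the same reads could count for both genes, and the part of this in the contrast was not tested. These correlations run over libraries of 5 stages and are descriptions.

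**Figure D4:**
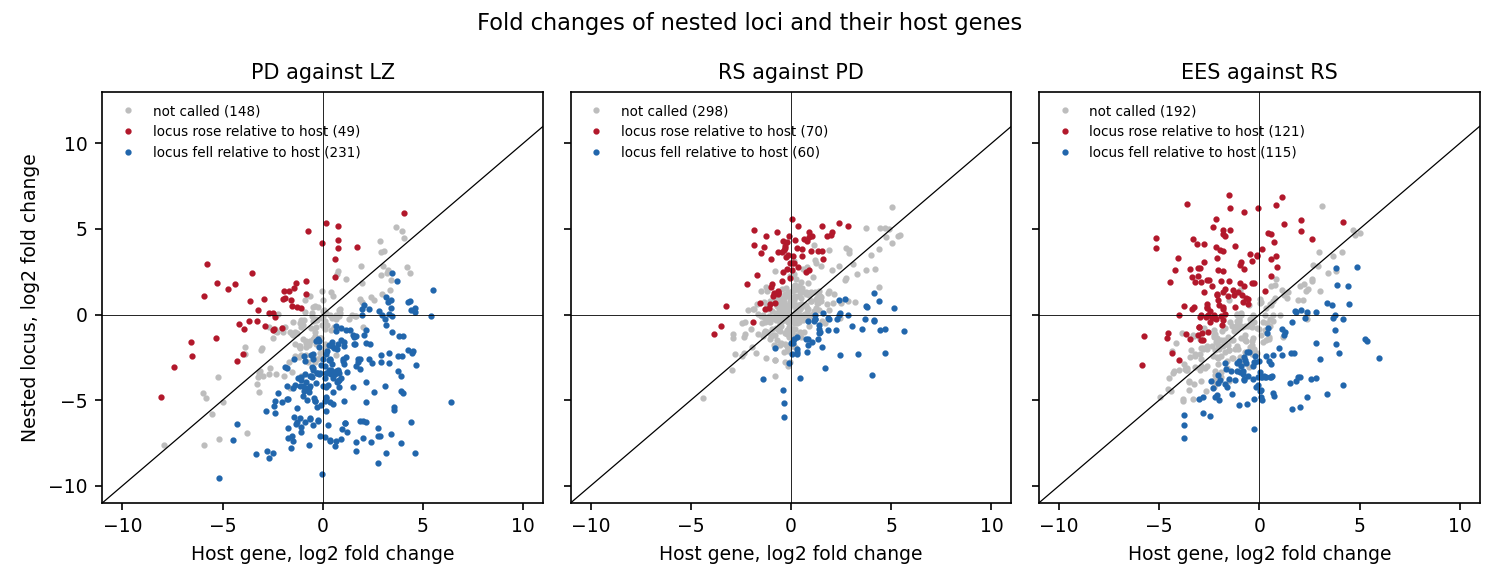
Log2 fold change of the nested locus (y axis) against that of its host (x axis) for 428 tested pairs in 3 comparisons of neighbouring stages; red and blue points are pairs whose locus rose or fell relative to the host by limma, and the diagonal marks equal change. In PD against LZ 231 pairs lie called below the diagonal and 49 above, in RS against PD 60 and 70, and in EES against RS 115 and 121.

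Nested loci were mostly weaker than their hosts per length. The median log2 ratio of locus to host was -1.61 in LZ, -4.09 in PD, -3.56 in RS, -2.94 in EES and -3.12 in LES, and the locus was the higher of the pair in 120, 77, 78, 97 and 97 pairs. The locus was above its host in all 5 stages in 25 pairs and below it in all 5 in 227, and the order changed between stages in 176. Locus and host had the same highest stage in 134 pairs (31.3%), against 48.7% of the other opposite-strand pairs, which may share exonic bases.

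Taking the 3 comparisons up to EES together, the most frequent course among the 448 tested loci was a fall in PD and a fall in EES with no call between, in 80 loci (17.9%, against 5.49% of all tested genes). A fall in PD with no later call followed in 78 (17.4%, against 6.17%), and no call at any step in 36 (8.04%, against 5.29%). A fall in PD with rises in RS and EES, the course of Hils1, Cypt4, Dnajb7, Plpp6 and MSTRG.10333, was seen in 25 (5.58%, against 8.85%). In all, 47 loci fell in PD and rose in EES. The rest of these had no call in RS (19, 4.24%, against 2.70%) or a fall there (3, 0.670%, against 0.358%). The RS call of MSTRG.10333 was lost with centring (log2 fold change 1.97, limma adjusted p = 0.0572) and on leaving out the first or the third PD library or the second or the third RS library (log2 fold changes 1.79 to 2.19, limma adjusted p from 0.0675 to 0.108). The test over all 5 stages was passed by 428 of 448 loci (95.5%), where 97.2% of all tested genes passed it.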

How the data were processed

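RNA-seq values of 17 libraries were deposited as log2 values, log2(100 × RPKM + 1) by their scale, 1 table for genes assembled de novo and 1 for annotated genes. The submitters' processing notes name Trim Galore, STAR and the build GRCm38/mm10, and the deposited transcript models were assembled with StringTie 1.3.4d, per the file headers. The log2 values were turned back into RPKM. Steps of 1 read were recovered in every library, which gave the library totals of 90.6 to 159.2 M reads, with a tolerance of 0.01 reads. Relative depths from both tables differed by at most 0.0866%.

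Stage differences were fitted on the deposited log2 scale (pseudocount 0.01 RPKM) with limma 3.58.1 in R 4.3.3 (lmFit, eBayes with a trend) over the 15 stage libraries and all genes at 1 RPKM in at least 3 libraries. P-values were adjusted by Benjamini and Hochberg over all 21515 genes, and a call needed an adjusted p under 0.05 and a log2 fold change of at least 1. Locus and host were compared in the same way on their log2 difference, adjusted over 6460 opposite-strand overlapping pairs. Scripts were tested on simulated data. Closest coding transcripts were found with blastn 2.17.0 in GENCODE M21; promoters come from RefSeq. The stage libraries sit in 1 fit, the single libraries in none.

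Loci were named by rule: the 8 with the highest stage mean, the 2 largest non-overlapping rises and falls per comparison at 8 RPKM or more, the pairs with the largest called change of the difference where both genes reached 8 RPKM in the higher stage, the 4 highest remaining loci with a reference gene, and those at the edge of the filter. The result of 1 locus named by this rule is not reported here. The members, lists and rules were chosen with earlier results of these data known. Alternatives were other scalings, pseudocounts, filters, libraries, a replicate block, no fold threshold and stricter member rules.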

Additional observations from a re-analysis of the deposited data

How the results depend on the processing

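Of 427 recomputed counts, 398 stayed within 1.5 times the value reported and 29 moved further; the cause was not tested. Quantile normalization gave 48 rises and 133 falls of loci in RS relative to PD, 102 pair falls there and 1 fall in LES relative to EES. It also turned the log2 fold change of MSTRG.25916 in RS relative to PD to -0.14 (limma adjusted p = 0.771) and that of 1 further locus in PD relative to LZ to -1.18 (limma adjusted p = 0.00043). A pseudocount of 1 RPKM gave 27 rises in PD relative to LZ, 39 rises and 18 falls in RS relative to PD, 62 rises, 48 falls and 69 pair falls in EES relative to RS. No filter, or a filter of 0.1 RPKM, gave 77 pair rises and 351 pair falls in PD relative to LZ, 173 rises, 139 pair rises and 94 pair falls in RS relative to PD, and 282 falls and 202 pair falls in EES relative to RS, over more loci tested. Loci at least 500 bases from host exons gave 33 falls in RS relative to PD, and 1 pair rose in LES relative to EES without the third LZ and second EES library.

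Leaving out 1 library at a time, or the third LZ library with the second EES library, gave 34 to 50 rises and 230 to 268 falls in PD relative to LZ, 76 to 111 and 34 to 58 in RS relative to PD, 91 to 101 and 142 to 198 in EES relative to RS, and 0 to 2 and 0 to 1 in LES relative to EES, where calls came without the first or the third LES library. For pairs the ranges were 46 to 60 rises and 200 to 255 falls, 49 to 89 and 44 to 74, 99 to 131 and 92 to 133, and 0 to 1 and 0. The test over 5 stages was passed by 426 to 433 loci. The fall in PD relative to LZ held for 51.6% of tested loci with centring (against 27.3% of all genes), 49.1% with quantile normalization (27.9%) and 44.9% with a pseudocount of 1 RPKM (21.1%). Among log2 fold changes of named loci, 42 recomputed values lost a call, 20 gained one and 1784 kept theirs.

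Whether replicate numbers pair the libraries is not known. Deviations from the stage means correlated at r of -0.241 to 0.168 between same-numbered libraries and -0.287 to 0.305 between others. Such values show no strong shared deviation and cannot exclude that same-numbered libraries share an origin. With the replicate number as a block, 42 loci rose and 248 fell in PD relative to LZ, 94 and 50 in RS relative to PD, and 101 and 175 in EES relative to RS; pair counts were 50 and 233, 65 and 62, and 115 and 114. The block moved no count of calls by over 1.5 times.

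At the median length of 541.5 bases the level needed for a test stood for 49.0 to 86.2 reads, and 218 loci below it were tested only where the filter was lifted or lowered. Libraries whose strandedness is not given, near-identical retrocopies and stages that differ in somatic markers limit the values as stated beside them.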
